A study of Mus musculus with 12 samples.

Results

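The 10 core genes of the circadian clock were examined in mouse liver: the activators Arntl (also called Bmal1), Clock and Npas2, the period genes Per1, Per2 and Per3, the cryptochromes Cry1 and Cry2, and the REV-ERB repressors Nr1d1 and Nr1d2. They were taken by name, as the textbook members of the loop, and all 10 were present among the 24527 gene symbols of the count table. The libraries were poly-A-selected RNA from snap-frozen livers of mice aged 39 weeks, 12 libraries in all, from offspring of CF1 females and B6SJL males, with n = 3 in each of 4 groups: females and males conceived by in vitro fertilization (IVF, fertilization of the egg outside the body), and females and males conceived naturally. All groups shared this cross, age and tissue, and differed by sex and by the mode of conception. The time of day and the feeding state at collection were not given in the sources used here, and neither was whether each library of a group came from a separate mouse or litter, so p-values measure the spread between these libraries, which may be technical. Libraries are named by group and replicate, numbered in accession order.

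The clock is a feedback loop of transcription. ARNTL pairs with CLOCK, or with the related NPAS2, and the pair binds E-box sequences to switch on the Per, Cry and Nr1d genes, whose proteins in turn hold the activators back: PER and CRY proteins bind the activator pair, and the REV-ERB proteins NR1D1 and NR1D2 repress Arntl and Npas2 through a response element called RORE. In mouse liver the messenger RNAs of Arntl and Npas2 therefore peak at about the opposite time of day from those of the Per genes, and Clock and Cry2 vary little over the day. A single library records the state of this loop at the moment of collection.

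Total counts were 6826534 to 27832271 per library, and 13204 genes, 9 of the 10 members among them, passed a filter on low counts. Npas2 did not pass it. The hepatocyte markers Alb, Apoa1, Ttr, Cps1, Tat, Serpina1c and Hnf4a were all detected and summed to 71200 to 105000 CPM (the usual count relative to library size, with the size scaled by the trimmed mean of M-values, TMM) per library. Markers of pancreatic acinar cells summed to at most 0.25 CPM. IVF female replicate 1 and natural female replicate 2 were the shallowest libraries, with 6826534 and 8056230 counts, so that each female group held 1 of them.

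The promoters shown are those of the members that entered the strongest correlations between clock genes given further down, Arntl, Npas2 and Per3; Per2 belongs with them and is named only. Of the 10 members, 9 had at least 1 promoter in the RefSeq table for GRCm38.p6, which gave 13 windows of 300 bases, and the reads had been placed on mm10, the same assembly. Each runs 5′ to 3′ on the gene's strand from 250 bases before a start site to 50 bases from it. Capitals mark matches, on either strand, to an E-box (CACGTG), an E′-box (CACGTT), a RORE (AA, any base, T, any base, then GGTCA), a D-box (TTANGTAA, the site of the PAR bZIP factors DBP, TEF and HLF) or a cAMP response element (TGACGTCA). The windows are chr7:113207261-113207560 (plus strand) for Arntl, the second of its 2 windows, chr4:151044616-151044915 (minus strand) for Per3 and chr1:39194022-39194321 (plus strand) for Npas2.
Arntl: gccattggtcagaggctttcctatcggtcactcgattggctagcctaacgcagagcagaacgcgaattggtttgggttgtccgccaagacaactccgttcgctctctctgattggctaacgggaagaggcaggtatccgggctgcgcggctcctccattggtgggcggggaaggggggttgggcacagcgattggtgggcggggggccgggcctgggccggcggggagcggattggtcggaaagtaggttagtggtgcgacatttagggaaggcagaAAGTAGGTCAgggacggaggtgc
Per3: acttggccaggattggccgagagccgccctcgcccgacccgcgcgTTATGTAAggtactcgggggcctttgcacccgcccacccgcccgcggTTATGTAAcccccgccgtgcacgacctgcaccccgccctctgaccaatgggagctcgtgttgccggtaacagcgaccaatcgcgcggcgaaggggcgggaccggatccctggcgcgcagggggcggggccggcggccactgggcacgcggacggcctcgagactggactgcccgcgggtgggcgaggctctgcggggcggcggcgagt
Npas2: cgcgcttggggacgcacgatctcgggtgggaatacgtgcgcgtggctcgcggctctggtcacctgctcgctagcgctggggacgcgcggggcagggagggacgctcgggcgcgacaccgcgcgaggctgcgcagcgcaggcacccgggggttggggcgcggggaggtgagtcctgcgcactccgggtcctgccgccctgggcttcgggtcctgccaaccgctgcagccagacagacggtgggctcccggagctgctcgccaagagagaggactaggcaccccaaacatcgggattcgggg
The Arntl window held 1 RORE downstream of its start site, a motif found in 0.606% of all 32851 promoter windows. The Per3 window held 2 D-boxes upstream of its start site, against 2.32% of all windows with any. The other Arntl window, which ends before this RORE, held none of the 5 motifs, and neither did the Npas2 window. Over the 13 windows of the members, E-boxes lay in 2 (Per1 and Cry1), against 7.15% of all windows, and E′-boxes in 3 (Cry1, Cry2 and Nr1d1), against 4.68%. A match describes the sequence and does not show that a factor bound there.

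Scaled by exon length, the REV-ERB genes were the most abundant members, and the activators Arntl and Npas2 had the lowest means over the 12 libraries. In CPM per kilobase of annotated exon, the mean over the 12 libraries was 29.2 ± 8.45 (SD, n = 12) for Nr1d1 and 26.2 ± 4.64 (SD, n = 12) for Nr1d2. A middle set followed, with 5.53 for Per2, 5.47 for Cry2, 4.69 for Per1, 4.6 for Clock, 3.2 for Cry1 and 2.76 for Per3, all as means in the same unit. Arntl had 0.784 ± 0.842 (SD, n = 12) and Npas2 0.129 ± 0.265 (SD, n = 12). The lowest library of Nr1d2, at 18.7 CPM per kilobase, and of Nr1d1, at 16.9, lay above the highest of any middle gene, 10.7 for Per1. Within the middle set, and between Nr1d1 and Nr1d2, the ranges of neighbours overlapped. The range of Arntl, 0.279 to 2.95 CPM per kilobase, overlapped those of Per3 and other middle genes and that of Npas2. In natural females the order differed, with mean levels of 1.86 CPM per kilobase for Arntl, 1.4 for Per3 and 1.26 for Per1. Over the 12 libraries Per1 spanned 19.3-fold in CPM, Arntl 10.6-fold, Per2 10.1-fold and Per3 7.45-fold, while Nr1d1 spanned 2.64-fold, Cry2 1.93-fold, Nr1d2 1.9-fold and Clock 1.86-fold.

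**Figure D1:**
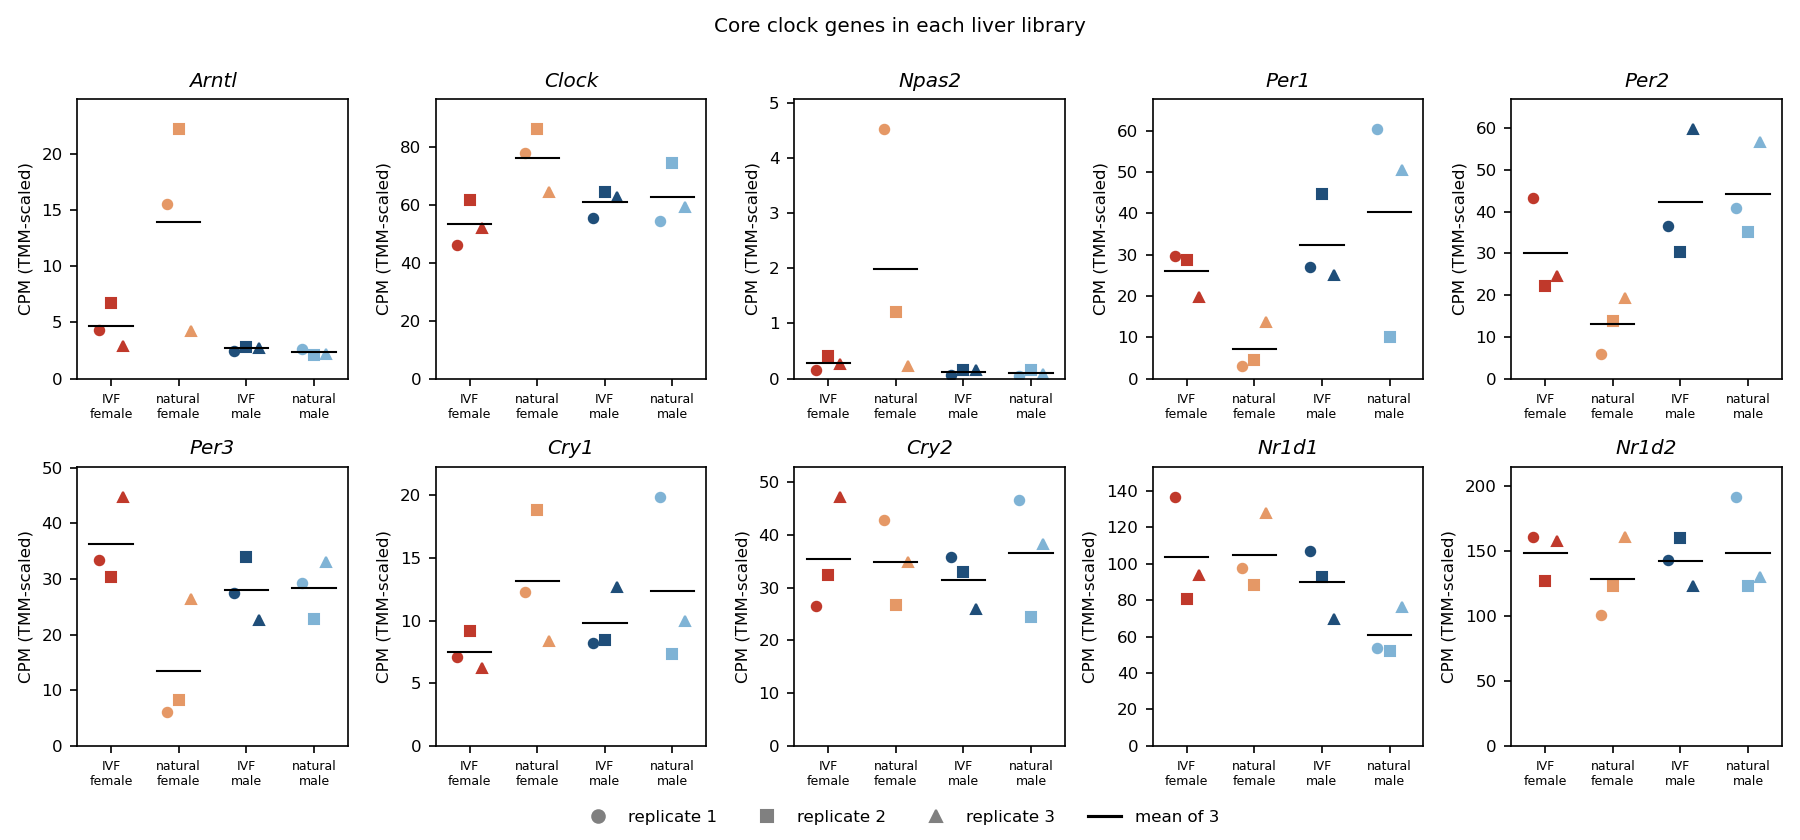
Level of each of the 10 core clock genes (CPM, TMM-scaled, vertical axes from 0) in the 12 liver libraries by group; each point is 1 library, its shape the replicate number, and the bar is the mean of 3. Natural female replicates 1 and 2 lie above all other libraries for Arntl, Clock and Npas2 and below all others for Per1, Per2 and Per3.

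The activators were highest in 2 of the natural females. Arntl, on chromosome 7 (113207465 to 113314126, GRCm38), encodes the partner of CLOCK and NPAS2 in the activator pairs described above. Its level was 4.3, 6.69 and 2.91 CPM in IVF females (replicates 1, 2 and 3 in this and all later lists), 15.5, 22.2 and 4.23 CPM in natural females, 2.47, 2.85 and 2.7 CPM in IVF males and 2.65, 2.1 and 2.21 CPM in natural males. Natural female replicates 1 and 2 were thus the only libraries above 6.69 CPM, while replicate 3 lay inside the range of the IVF females. All females were above all males. Clock (chromosome 5, 76209868 to 76304792), a DNA-binding partner of ARNTL, had 46.2, 61.7 and 51.8 CPM in IVF females, 77.7, 86 and 64.3 CPM in natural females, 55.5, 64.4 and 62.6 CPM in IVF males and 54.4, 74.3 and 59.3 CPM in natural males. The natural females lay above the IVF females without overlap, by a narrow margin in replicate 3. Npas2 (chromosome 1, 39193731 to 39363236), which can take the place of CLOCK, was near the limit of detection in most libraries. It had 4.53, 1.2 and 0.232 CPM in natural females, 0.148 to 0.416 CPM in IVF females, 0.0687 to 0.15 CPM in IVF males and 0.0457 to 0.15 CPM in natural males. Its highest library, natural female replicate 1, held 113 counts, while all others held 1 to 10, natural female replicate 2 having 10.

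The period genes showed the opposite order. Per1 (chromosome 11, 69095217 to 69109960), the member most directly induced by hormonal and other acute signals, had 29.7, 28.8 and 19.7 CPM in IVF females, 3.13, 4.55 and 13.6 CPM in natural females, 26.9, 44.7 and 25.1 CPM in IVF males and 60.4, 10 and 50.6 CPM in natural males. All natural females lay below all IVF females, and natural male replicate 2 lay below both other males of its group. Per2 (chromosome 1, 91415982 to 91459324), a core repressor, had 43.3, 22.1 and 24.7 CPM in IVF females, 5.9, 13.7 and 19.3 CPM in natural females, 36.6, 30.3 and 59.8 CPM in IVF males and 41, 35.2 and 56.7 CPM in natural males. The natural females were again the lowest group, below every other library. Per3 (chromosome 4, 151003652 to 151044665), a family member that the loop can run without, had 33.4, 30.4 and 44.8 CPM in IVF females, 6.02, 8.15 and 26.3 CPM in natural females, 27.4, 34 and 22.6 CPM in IVF males and 29.3, 22.7 and 33 CPM in natural males. Only natural female replicates 1 and 2 fell outside the range of the other 10 libraries for Per3, which ran from 22.6 to 44.8 CPM.

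The cryptochromes, which carry most of the repressing activity of the PER and CRY complex, did not follow the period genes. Cry1 (chromosome 10, 85131700 to 85185064) had 12.3, 18.8 and 8.34 CPM in natural females and 7.12, 9.15 and 6.2 CPM in IVF females. It had 8.17, 8.46 and 12.7 CPM in IVF males and 19.9, 7.29 and 10 CPM in natural males, and the ranges of all 4 groups overlapped. Cry2 (chromosome 2, 92403646 to 92434043) ranged from 24.5 to 47.3 CPM, with group means of 35.4 ± 10.7 (SD, n = 3) in IVF females, 34.9 ± 8.02 in natural females, 31.5 ± 5.06 in IVF males and 36.5 ± 11.2 in natural males. These means lay within 1 SD of each other.

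The REV-ERB genes did not set the natural females apart as a group. Nr1d1 (chromosome 11, 98767932 to 98775333) had 137, 80.6 and 93.7 CPM in IVF females, 97.8, 88.2 and 128 CPM in natural females, 107, 92.8 and 69.9 CPM in IVF males and 53.9, 51.9 and 76.5 CPM in natural males. Natural males were the lowest group and lay below all females, but overlapped the IVF males. Nr1d1 shares 263 bases of exon with Thra on the opposite strand, 8.55% of its exon length, and whether counting used strand is not given in the sources used here, so reads from the shared stretch cannot be assigned. Smaller overlaps of this kind concern Cry2, with 4.67% of its exon length, and Arntl, with 0.439%. Nr1d2 (chromosome 14, 18204054 to 18239127) ranged from 101 CPM in natural female replicate 1 to 192 CPM in natural male replicate 1. Its group means were 149 ± 18.8 (SD, n = 3) in IVF females, 128 ± 30.1 in natural females, 142 ± 18.9 in IVF males and 148 ± 37.9 in natural males. Natural female replicates 1 and 2, at 101 and 123 CPM, lay at the low end for Nr1d2, where the other 10 libraries ran from 123 to 192 CPM. Natural female replicate 3 had 161 CPM.

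Natural female replicates 1 and 2 were then compared with the other 10 libraries, a choice made after their values were seen. For 6 of the 10 members both of these libraries lay outside the range of the other 10: above it for Arntl, Clock and Npas2, and below it for Per1, Per2 and Per3. Without Npas2, which had not passed the filter, these were 5 of 9 members, and the same was true of 428 of the 13204 tested genes, or 3.24%. For the remaining members, Cry1, Cry2, Nr1d1 and Nr1d2, at least 1 of the 2 lay inside that range. Natural female replicate 3 held 4.23 CPM of Arntl and 26.3 CPM of Per3, both inside the range of the IVF females or the males. These 2 libraries differed in depth, with totals of 23430136 and 8056230 counts.

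**Figure D2:**
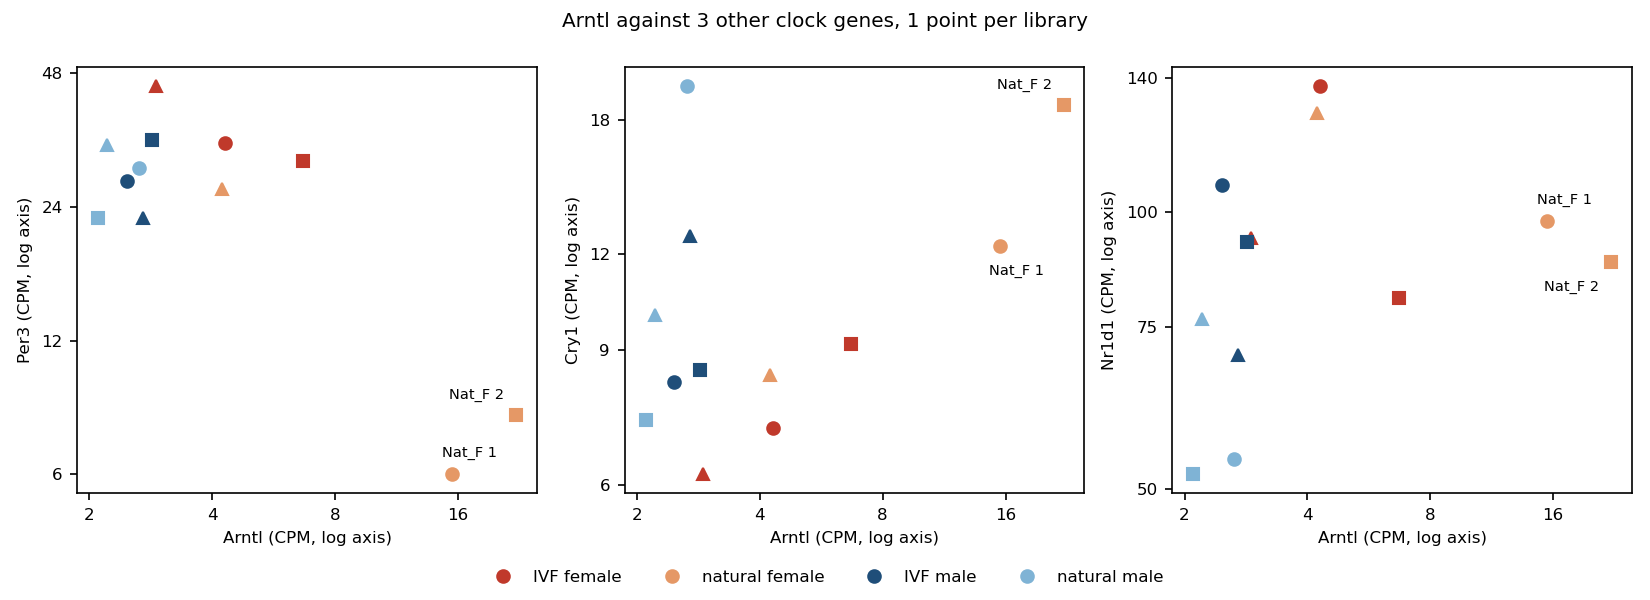
Arntl level (horizontal, CPM, log axis) against Per3, Cry1 and Nr1d1 (vertical, CPM, log axes), 1 point per library, coloured by group, with circles, squares and triangles for replicates 1, 2 and 3. Natural female replicates 1 and 2 combine the highest Arntl, 15.5 and 22.2 CPM, with the lowest Per3, 6.02 and 8.15 CPM, while their Nr1d1 lies among that of the other libraries.

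The first comparison asked whether IVF changed the clock genes of females. By edgeR's quasi-likelihood test no member passed the threshold of 0.05 after Benjamini-Hochberg adjustment, where 0% of all tested genes did, and DESeq2 and limma voom also called 0. At an unadjusted p under 0.05 there were 5 of the 9 tested members, Per1, Per2 and Per3 higher and Arntl and Clock lower after IVF, against 3.7% of all tested genes, 1.7% higher and 1.99% lower. Of the genes higher after IVF, Per1 had the largest difference, a log2 fold change of 1.87 ± 0.64 (SE) with a 95% interval of 0.48 to 3.26. Per3 followed with 1.42 ± 0.45 (SE) and an interval of 0.44 to 2.4, and Per2 with 1.21 ± 0.42 (SE) and 0.28 to 2.14. Arntl was lower by -1.57 ± 0.48 (SE), with an interval of -2.63 to -0.51, and Clock by -0.51 ± 0.19 (SE), with -0.92 to -0.11. Each of these 5 genes had an adjusted p of 1 by edgeR. The groups did not overlap for 4 of the 9 members, Per1, Per2, Per3 and Clock, where 7.42% of all tested genes did not overlap, 3.55% with IVF higher, as for the 3 period genes, and 3.87% with IVF lower, as for Clock. The median log2 fold change was 0.02 over the members, whose directions differ, and -0.01 over all tested genes.

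The 4 members with an unadjusted p above 0.05 were the cryptochromes and the REV-ERB genes. Cry1 had a log2 fold change of -0.8 with an interval of -1.65 to 0.06, Cry2 0.02 with -0.6 to 0.65, Nr1d1 -0.01 with -0.57 to 0.55 and Nr1d2 0.21 with -0.29 to 0.72. For the last 3 genes these intervals do not exclude differences of about 0.5 on the log2 scale. Npas2, fitted without the filter on low counts, had -2.76 ± 0.82 (SE) with an edgeR adjusted p of 1, and natural female replicates 1 and 2 were the only libraries above 1 CPM.

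The female differences were smaller, and that of Arntl changed sign, without natural female replicates 1 and 2. With both left out, which leaves 1 natural female library assumed to vary like those of the other groups, the log2 fold change of Arntl turned to 0.15 ± 0.43 (SE). Those of Per1, Per2 and Per3 went to 0.95 ± 0.79, 0.63 ± 0.48 and 0.48 ± 0.33 (SE), and that of Clock to -0.26 ± 0.25 (SE). The remaining natural female, replicate 3, lay below all 3 IVF females for Per1, Per2 and Per3 and above them for Clock. Leaving out replicate 3 instead gave 2.81 for Per1, 1.66 for Per2, 2.39 for Per3 and -1.98 for Arntl, again with 0 members called by edgeR, and the smallest adjusted p-value was then 0.0803, for Per3. Summed levels of the listed stellate cell and fibroblast markers, all 6 of which passed the filter, did not overlap between the female groups either, at 286 to 326 CPM after IVF and 238 to 278 CPM after natural conception, and their part in the clock gene values was not tested. In bulk tissue, fewer cells of a type and less RNA per cell cannot be told apart.

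**Figure D3:**
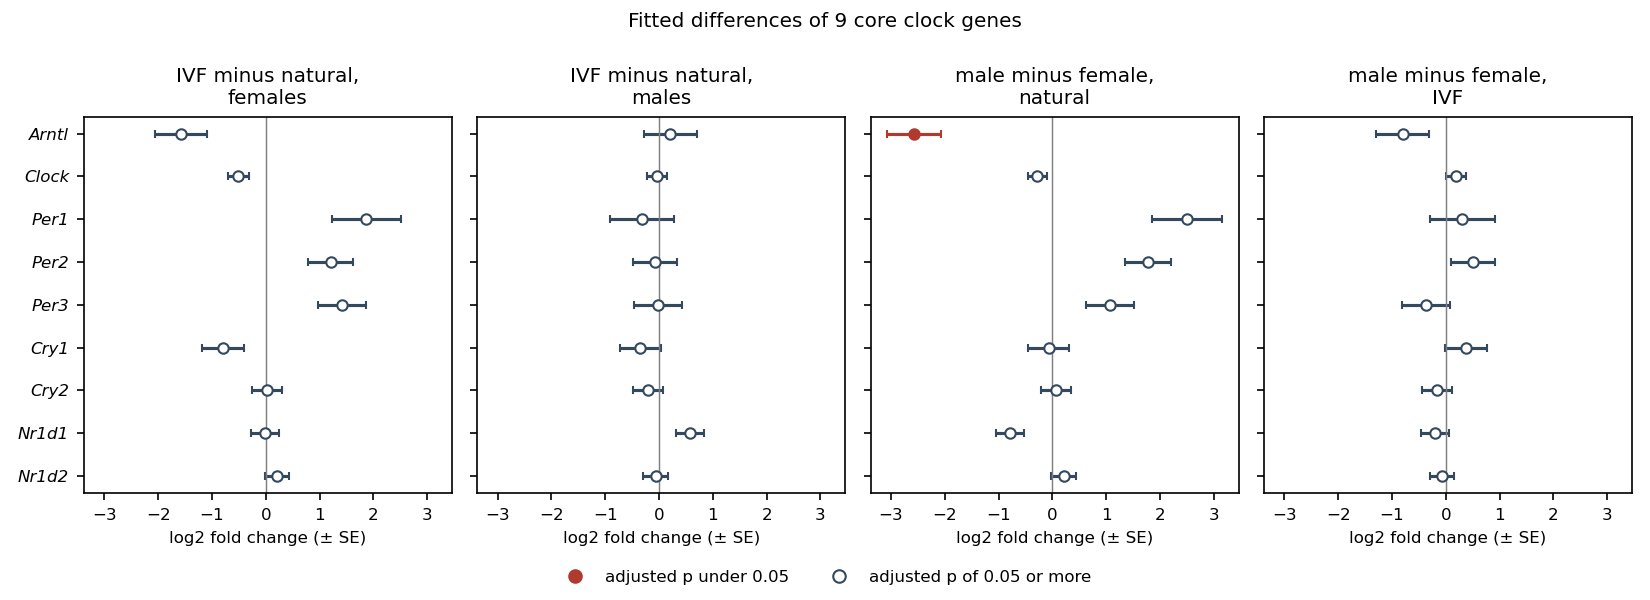
Fitted log2 fold changes (points, with SE as bars) of the 9 tested core clock genes in 4 comparisons; filled red marks an adjusted p-value under 0.05 in edgeR's test. The natural females enter the IVF comparison of females and the sex comparison of natural mice, where Arntl lies at -1.57 and -2.57 and Per1 at 1.87 and 2.5.

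In males the same question gave no counterpart. No member passed the adjusted threshold in edgeR, DESeq2 or limma voom, where 0.00757% of all tested genes passed in edgeR, and 1 of 9 members, Nr1d1, had an unadjusted p under 0.05 in edgeR, against 2.69% of all tested genes. Nr1d1 was 0.57 ± 0.26 (SE) higher on the log2 scale after IVF, with an edgeR adjusted p of 1. Its groups overlapped, since IVF male replicate 3, at 69.9 CPM, lay below natural male replicate 3, at 76.5 CPM. No member was without overlap between the male groups, where 8.91% of all tested genes were. The fitted values of the 9 members ran from -0.35 for Cry1 to 0.57 for Nr1d1, and Arntl had 0.21 ± 0.49 (SE) with an interval of -0.87 to 1.29. Of the members, 2 were higher and 7 lower after IVF, with a median log2 fold change of -0.06 against 0.01 over all tested genes. Summed markers did not overlap between the male groups for hepatocytes, at 71200 to 81000 CPM after IVF and 84300 to 93900 CPM after natural conception, or for Kupffer cells and macrophages, at 94.5 to 140 and 160 to 181 CPM, and their part was not tested.

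The difference between the sexes in the IVF effect, male minus female, was tested as an interaction. It passed the adjusted threshold for 0 members by edgeR, DESeq2 and limma voom, where 0% of all tested genes passed in edgeR. At an unadjusted p under 0.05 there were 3 of 9 members, Arntl at 1.78 ± 0.69 (SE), Per1 at -2.19 ± 0.87 (SE) and Per3 at -1.44 ± 0.63 (SE), against 3.87% of all tested genes. Per2 had -1.28 ± 0.59 (SE), Clock 0.47 ± 0.26 (SE) and Nr1d1 0.58 ± 0.36 (SE). By edgeR each had an adjusted p of 1, so the IVF effect on the clock genes was not shown to differ between females and males. Without natural female replicates 1 and 2 the value of Arntl was 0.05, that of Per1 -1.28 ± 0.94 (SE), that of Per3 -0.5, that of Per2 -0.71, that of Clock 0.21 and that of Nr1d1 0.85. The average of the IVF effects in both sexes was called for 0 members in edgeR, DESeq2 and limma voom, where 0.00757% of all tested genes passed in edgeR, with 1 of 9, Per3 at 0.7 ± 0.31 (SE), at an unadjusted p under 0.05 against 2.69% of all tested genes.

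Among naturally conceived animals Arntl was lower in males than in females, and it was the 1 called of the 9 tested members. Its log2 fold change, male against female, was -2.57 ± 0.5 (SE), or 5.96-fold, with an edgeR adjusted p of 0.0244, where 1.77% of all tested genes were called. All 3 males, at 2.1 to 2.65 CPM, lay below all 3 females, at 4.23 to 22.2 CPM. Leaving out any 1 of the 6 libraries compared, other than natural female replicate 3, took the call away, and so did limma voom: the adjusted p-value was 0.0675 and 0.0672 without natural female replicate 1 or 2, 0.0803, 0.103 and 0.123 without natural male replicate 1, 2 or 3, and 0.0754 in limma voom. Without both shallow libraries it was 0.0652 in edgeR. The log2 fold change itself was -2.48, -2.09, -2.68, -2.52 and -2.54 in the 5 fits without 1 library, in the same order, -2.22 in limma voom and -2.1 without both shallow libraries. Without natural female replicates 1 and 2 together the value fell to -0.85 ± 0.42 (SE), with an edgeR adjusted p of 0.469. Npas2 was also called when the filter on low counts was left out, at -4.4 ± 0.92 (SE) with an edgeR adjusted p of 0.0315, on 1 to 3 counts in each natural male and 113, 10 and 4 counts in natural females.

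The period genes stood in the opposite direction and did not pass. Per1 was 2.5 ± 0.65 (SE) higher in natural males on the log2 scale (edgeR adjusted p = 0.0865), and Per2 1.78 ± 0.43 (SE) higher (edgeR adjusted p = 0.0651). DESeq2 called both genes, with adjusted p-values of 0.00217 and 0.0029, and limma voom called Per2 with 0.0421. Per3 had 1.07 ± 0.45 (SE) and an edgeR adjusted p of 0.29. Leaving out natural female replicate 3 made 5 members pass in edgeR, Arntl, Npas2, Per1, Per2 and Per3. That fit kept only natural female replicates 1 and 2 in their group, the libraries singled out above after their values were seen. Npas2 was tested in it because it then passed the filter on low counts, with 113 and 10 counts in these libraries. Leaving out natural male replicate 2, the male of lowest Per1, made Per1 pass in place of Arntl. Nr1d1 was lower in natural males by -0.78 ± 0.26 (SE), with an edgeR adjusted p of 0.176, and Clock had -0.28 ± 0.18 (SE). In all, 5 of the 9 members had an unadjusted p under 0.05, against 14.9% of all tested genes. The 3 period genes were higher in males, against 7.21% of all tested genes, and Arntl and Nr1d1 lower, against 7.71%. The groups did not overlap for 3 of the 9, against 20% of all tested genes: Per2 with males higher, against 10.1%, and Arntl and Nr1d1 with males lower, against 9.85%. Summed markers of Kupffer cells and macrophages also did not overlap between these groups, at 216 to 255 CPM in natural females and 160 to 181 CPM in natural males, with all 6 markers of the list passing the filter. Nor did the lymphocyte markers, at 2.84 to 4.09 CPM and 0.64 to 1.46 CPM, with 4 of 6 passing. Their part was not tested.

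Among IVF animals the sexes differed less in these genes, though the difference between the 2 sex comparisons is the interaction above, which called no member. No member was called by edgeR, DESeq2 or limma voom, where 2.19% of all tested genes were called in edgeR, and 0 of 9 had an unadjusted p under 0.05, against 14.9% of all tested genes. Arntl again lay lower in every male, at 2.47 to 2.85 CPM, than in every female, at 2.91 to 6.69 CPM, with a log2 fold change of -0.8 ± 0.49 (SE), an interval of -1.87 to 0.28 and an edgeR adjusted p of 0.505. It was the 1 member of 9 without overlap, against 21.8% of all tested genes. Per2 had 0.5 ± 0.41 (SE), with an interval of -0.41 to 1.41. Summed markers of several cell types did not overlap between IVF females and IVF males. They were 91000 to 105000 against 71200 to 81000 CPM for hepatocytes, 210 to 309 against 94.5 to 140 CPM for Kupffer cells and macrophages, and 175 to 224 against 151 to 166 CPM for sinusoidal endothelium. Stellate cell and fibroblast markers had 286 to 326 against 175 to 262 CPM, and erythroid markers 6.61 to 20.5 against 23.6 to 175 CPM. All listed markers of these types passed the filter except 2 of the 4 erythroid ones, and their part in the clock gene values was not tested.

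Whether the members varied together between libraries of one group was examined over all 45 pairs, on log2 CPM as deviations from the group mean. The strongest were negative and joined an activator to a period gene: Npas2 with Per3 had a Pearson's r of -0.86 and a Spearman's rho of -0.64 over 12 libraries, with exact permutation p-values of 0.0718 and 0.0895. Arntl with Per3 had an r of -0.83 and a rho of -0.6, with exact permutation p-values of 0.112 and 0.139. Npas2 with Per2 had an r of -0.78 and a rho of -0.73, with exact permutation p-values of 0.0509 and 0.0486. The smallest exact permutation p was that of Arntl with Cry1, 0.0054, at an r of 0.68, with a rho of 0.85 and an exact permutation p of 0.00231. Per3 with Nr1d2 had an r of 0.72 and a rho of 0.75, with exact permutation p-values of 0.0247 and 0.0255. No pair passed after Benjamini-Hochberg adjustment over the 45 pairs, the smallest adjusted p being 0.243 for r and 0.104 for rho, while 6 pairs had an unadjusted exact permutation p under 0.05 for r.

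Each of these values was recomputed without the 2 libraries farthest from the median of the first gene named, a step that takes away the widest part of that gene's spread. The r of Npas2 with Per3 went to -0.3 and that of Npas2 with Per2 to -0.45 without natural female replicates 1 and 3. That of Arntl with Per3 went to -0.58, and that of Arntl with Cry1 to 0.49, without natural female replicates 2 and 3. Per3 with Nr1d2 went to 0.51. Of the other 4 pairs with an unadjusted p under 0.05, Npas2 with Nr1d2 went from -0.75 to -0.66, Per1 with Per3 from 0.7 to 0.65, Clock with Nr1d1 from -0.71 to -0.65 and Npas2 with Per1 from -0.65 to -0.43. All 9 kept their sign. Without the 2 shallow libraries r was -0.94 for Npas2 with Per3, -0.86 for Arntl with Per3, -0.79 for Npas2 with Per2, 0.55 for Arntl with Cry1 and 0.77 for Per3 with Nr1d2. Natural female replicates 1 and 2 were also left out, a choice made after their values were seen. The r was then -0.32 for Npas2 with Per3, -0.42 for Arntl with Per3 and -0.46 for Npas2 with Per2. It was 0.55 for Arntl with Cry1 and 0.56 for Per3 with Nr1d2. Npas2 values come from 1 to 10 counts in every library but natural female replicate 1, which limits their precision.

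**Figure D4:**
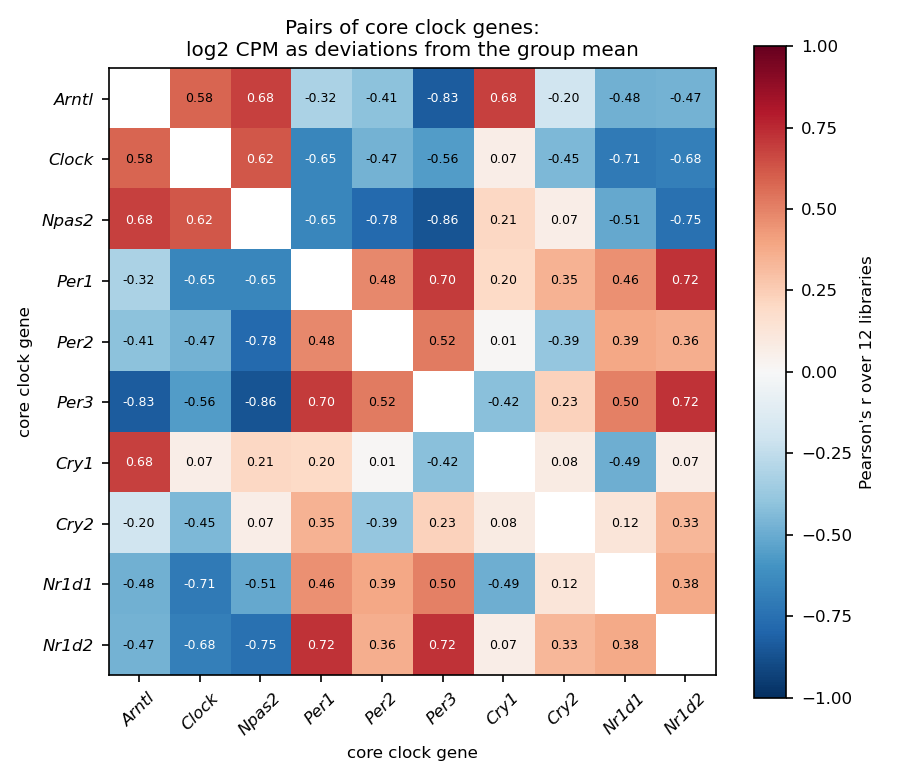
Pearson's r over 12 libraries for each of the 45 pairs of core clock genes, computed on log2 CPM as deviations from the group mean; red is positive, blue negative, and the gene names are on both axes. Activators and Per3 lie at opposite signs, -0.83 for Arntl and -0.86 for Npas2, and no pair passed the adjusted threshold.

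Genes outside the loop whose levels were most like those of Arntl over the 12 libraries were, among 9086 genes that averaged 5 CPM or more, Stk24 and Clpx with a Pearson's r of 0.95 each, Map4k4 with 0.92, and Dyrk1a and Mterf4 with 0.9 each. Clpx, a subunit of a mitochondrial protease, had 302 and 340 CPM in natural female replicates 1 and 2 and 52.3 to 173 CPM in the other libraries. Stk24, Map4k4, Dyrk1a and Mterf4 were likewise highest in natural female replicates 1 and 2. By ranks, Spearman's rho with Arntl was 0.78 for Stk24, 0.87 for Clpx, 0.9 for Map4k4, 0.86 for Dyrk1a and 0.73 for Mterf4. On deviations from the group mean, r with Arntl was 0.93 for Stk24, 0.84 for Clpx, 0.71 for Map4k4, 0.64 for Dyrk1a and 0.73 for Mterf4. For Nr1d1 the most similar genes were Tns2 with 0.86, Fgfr2 with 0.8, and Plpp5, Pik3c2b and Scnn1a with 0.77 each. On deviations these were 0.7, 0.85, 0.51, 0.72 and 0.52, in the same order. Spearman's rho with Nr1d1 was 0.79, 0.86, 0.76, 0.73 and 0.78, again in that order. All these values share the same 12 libraries and their scaling, and they were selected as the highest among all genes.

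Other genes linked to the clock were read from 5 lists holding 65 genes, of which 64 passed the filter. In the IVF comparisons edgeR called 0 of the 64 in females and 0 in males. At an unadjusted p under 0.05 there were 3 higher and 0 lower after IVF in females. Of all tested genes, 1.7% were higher and 1.99% lower, 3.7% in either direction. In males 0 were higher and 2 lower, against 2.69% of all tested genes in either direction. In females the smallest unadjusted p-values were those of Alas1, the first enzyme of haem synthesis, and of Wee1, a cell cycle kinase with E-box control. Alas1 had 580, 304 and 274 CPM in IVF females and 25.4, 84.7 and 128 CPM in natural females, with a log2 fold change of 2.28 ± 0.58 (SE). Wee1 had 16.6, 11.6 and 13.5 CPM in IVF females and 3.01, 3.95 and 10.5 CPM in natural females, with 1.23 ± 0.44 (SE). The groups did not overlap for either gene, and both had an adjusted p of 1 by edgeR. In males the smallest were those of Por, which encodes the electron donor of cytochromes P450, at -0.73 ± 0.25 (SE), and Fkbp5, a glucocorticoid-induced chaperone, at -1.17 ± 0.46 (SE), with an edgeR adjusted p of 1 each.

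By list, in the female comparison, the median log2 fold change was 0.23 over 6 clock feedback regulators, 0.3 over 4 PAR bZIP output factors, -0.04 over 18 clock protein modifiers, 0.26 over 18 rhythmic liver targets and 0.09 over 18 systemic timing cues, against -0.01 over all tested genes. In males these medians were -0.25, 0.03, 0, -0.17 and -0.06, against 0.01. None of these 5 lists held a called gene in either comparison by edgeR's test. The 18 modifiers, kinases, ubiquitin ligases and cofactors that act on clock proteins, had 0 genes at an unadjusted p under 0.05 in females and 0 in males.

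Between natural males and females edgeR's test called 4 of the 64 genes, all higher in males. Of all tested genes 1.77% were called in either direction, and 118 of 13204 were called higher in males. Coq10b, needed for the function of coenzyme Q, had 57, 26.1 and 54.6 CPM in natural males and 5.17, 10.8 and 16 CPM in natural females, a log2 difference of 2.11 ± 0.41 (SE) with an edgeR adjusted p of 0.0228. Alas1 had 382, 480 and 657 CPM in natural males, with 2.67 ± 0.59 (SE) and an edgeR adjusted p of 0.0445. Hspa1b, an inducible heat shock protein, had 108, 254 and 324 CPM in natural males and 7.5, 14.5 and 32.8 CPM in natural females, with an edgeR adjusted p of 0.0355. The near-identical neighbour Hspa1a can share its reads, so its identity is uncertain. Elovl3, a fatty acid elongase, had 75 to 81.8 CPM in natural males and 2.05 to 12.3 CPM in natural females, with an edgeR adjusted p of 0.0178. In IVF animals Elovl3 was the 1 gene of the 64 called, at 31.1 to 146 CPM in males and 2.23 to 5.28 CPM in females, with an edgeR adjusted p of 0.00566, against 2.19% of all tested genes. The output factors Dbp and Tef, transcription factors that act through D-boxes, were not called in any of the 6 comparisons. Dbp had 18.7 and 8.99 CPM in natural female replicates 1 and 2 and 43.2 to 97.4 CPM in the other 10 libraries, and Tef 72.4 and 51.9 CPM against 89.8 to 215 CPM. The other output factors of that list, Hlf and Nfil3, did not have both libraries outside that range. Hlf had 69.2 and 96.2 CPM against 81.7 to 110 CPM, and Nfil3 25.8 and 18.2 CPM against 11.4 to 35 CPM.

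**Figure D5:**
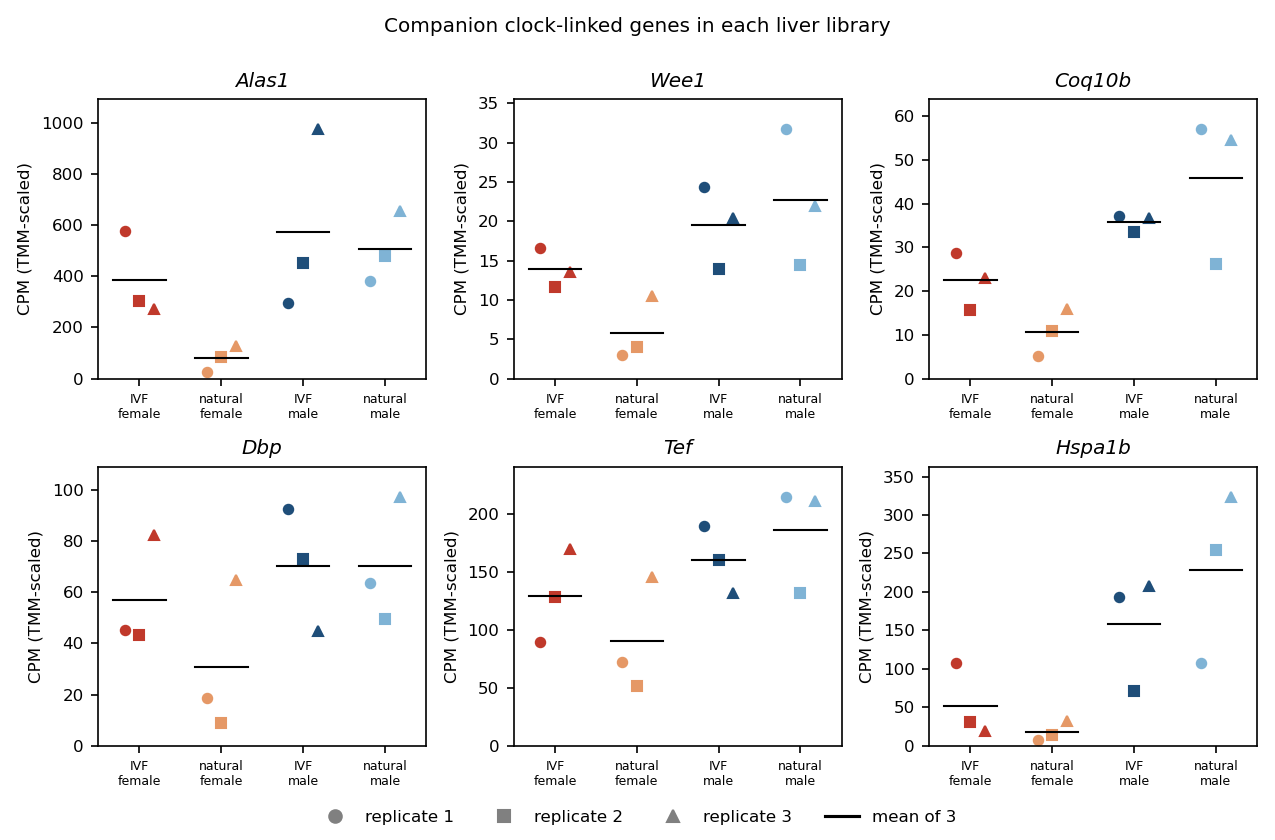
Level (CPM, TMM-scaled, vertical axes from 0) of 6 clock-linked genes outside the core loop in the 12 liver libraries by group; each point is 1 library, its shape the replicate number, and the bar is the mean of 3. For each gene shown, natural female replicates 1 and 2 are the 2 lowest libraries, as with Dbp at 18.7 and 8.99 CPM. All 6 come from the 11 of 64 clock-linked genes with both libraries below all others, so the shared pattern follows from the choice of genes. Por, Fkbp5, Elovl3, Hlf and Nfil3, not shown, did not have both libraries below all others.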

How the data were processed

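Reads of messenger RNA in 12 mouse liver libraries were used as raw counts per gene symbol, 1 column per library, as deposited by the authors. Trimmomatic 0.32, STAR 2.3.0e, featureCounts 1.5.0 and the build mm10 are named in the submitters' processing notes; which annotation was used, whether strand was used and how multi-mapping reads were counted are not given in the sources used here. Columns were matched to samples by title, and groups came from the labels.

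edgeR 4.0.16 (R 4.3.3) was run on the deposited counts with filterByExpr, TMM scaling and a quasi-likelihood fit of 4 group means over all 12 libraries; p-values were adjusted by Benjamini-Hochberg over 13204 genes, with 0.05 as the threshold. Each SE was taken from the fold change and its F statistic. DESeq2 1.42.0 and limma 3.58.1 (voom) were alternatives. Log2 CPM used a prior count of 2. Pairs were tested two-sided over all 1296 rearrangements within groups, which can give a p no smaller than 0.000772. Exon lengths and positions came from GENCODE M21 (GRCm38).

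The members and lists were chosen with earlier results of these data known. Named genes were all members, list genes called in any comparison, the 2 of smallest unadjusted p in each sex for IVF, and the 5 most similar to Arntl and to Nr1d1; others were named after their values were seen. On simulated counts of 13029 genes for the female comparison, randomly chosen genes were raised in the IVF females alone. There edgeR recovered 17.9%, 82.1% and 98.5% of genes changed 2-fold, 4-fold and 8-fold, and called 6 unchanged genes. These shares depend on how many genes were changed. They need not hold for the data, where 0% of all tested genes were called in that comparison. Libraries of a group differed by more than sampling noise, with a chi-square per degree of freedom of at least 66.3.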

Additional observations from a re-analysis of the deposited data

How the results depend on the processing

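The call count that moved was that of members between natural males and females, 1 as reported. It was 3 with no filter on low counts, 3 with DESeq2, 3 at an adjusted p under 0.1, 2 with a covariate for the shallow libraries, 0 without both shallow libraries and 0 without natural female replicates 1 and 2, an alternative chosen after seeing the data. Leaving out 1 library gave 0 to 5, and the 5 include Npas2, which passed the filter in that fit. The count stayed at 0 for both IVF comparisons, the interaction, the average and the IVF sex comparison under every alternative run. For pairs it stayed at 0, also in each fit that left out 1 library, except for 16 when group means were not removed. Signs turned for Arntl in females (0.15) and Nr1d2 in females (-0.1) without natural female replicates 1 and 2, and for Cry2 in females (-0.04) by library size alone. Leaving out 1 library gave -0.24 to 0.21 for Cry2 and -0.25 to 0.17 for Nr1d1 in females, and -0.62 to 0.17 for Cry1 in males. The cause of these turns was not tested. Scaling by library size alone moved the median over all tested genes, on the log2 scale, from -0.02 to -0.34 between natural males and females, from 0.01 to 0.14 for IVF in males, from 0.03 to 0.23 for the interaction and from 0.01 to -0.1 between IVF males and females. Of 709 values recomputed, 670 kept their direction and side of the threshold. No paired analysis was possible because the groups compared share fewer than 2 numbers in the labels: IVF female replicate 1 and IVF male replicate 2 have the same leading number in their titles, and what it marks is not given in the sources used here. Depth limits Npas2, with 1 to 113 counts per library.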

Other observations

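Among the 64 clock-linked genes outside the core loop, natural female replicates 1 and 2 both lay outside the range of the other 10 libraries for 14, or 21.9%, against 3.24% of all tested genes; these libraries and genes were singled out after their values were seen. They were above that range for 3 genes and below it for 11. Insig2, which restrains sterol synthesis, had 351 and 294 CPM in them and 123 to 257 CPM in the others. Avpr1a, a vasopressin receptor, had 82.8 and 142 CPM against 16.7 to 63.6 CPM, and Leap2, a secreted peptide of the liver, had 33 and 39.5 CPM against 13.7 to 27.8 CPM. Bhlhe40, an E-box-binding repressor, had 31.4 and 49.5 CPM against 79.1 to 160 CPM. Rbm3, an RNA-binding protein induced by cold, had 12 and 11.9 CPM against 15.3 to 33.6 CPM, and the heat-induced Hspa1a had 4.97 and 7.55 CPM against 13 to 171 CPM. Other temperature-linked genes of the lists, Cirbp, Hsp90aa1, Hspa8 and Hsf1, did not have both libraries outside that range. Cirbp, which is also induced by cold, had a log2 fold change of -0.76 ± 0.34 (SE) between natural males and females (edgeR adjusted p = 0.322).

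Natural male replicate 1 held the highest level of 3 of the 10 core clock genes, Per1, Cry1 and Nr1d2. It also held the highest level of the glucocorticoid-induced genes Tsc22d3, at 304 CPM, and Fkbp5, at 147 CPM. Fkbp5 reached 135 CPM in natural female replicate 2, where Per1 was 4.55 CPM. Sgk1 and Tat, of the same list, were not read library by library. Natural male replicate 2 held the lowest level of Arntl, Cry2 and Nr1d1. No test was made of these single libraries, and how often each was highest or lowest over all tested genes was not computed.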
